A study of Homo sapiens with 11 samples.

Results

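The ABC transporter genes encode proteins that bind and split ATP through a shared nucleotide-binding cassette. They were taken here as the genes whose array annotation gives a probe set with exactly 1 symbol made of ABCA to ABCG and a number. There were 41 of them among 22395 genes, and 23 were among the 15865 genes tested. ABCB6 and ABCB8 share their probe sets with another gene and were left out by the rule. ABCC13 keeps its place under the rule although RefSeq calls it a transcribed pseudogene.

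The 11 arrays (Affymetrix Human Gene 2.1 ST) measured RNA of MDA-MB-468, a triple-negative breast cancer line taken from a pleural effusion. The cells were kept for 24 h with tumour necrosis factor (TNF, 40 ng/ml) plus apigenin (40 µM; 3 arrays), with TNF alone at that concentration (3 arrays), with apigenin alone at that concentration (2 arrays) or without treatment (control, 3 arrays). Apigenin is a plant flavone, and TNF is a cytokine of inflammation that acts by way of NF-kB. Both agents were prepared in HBSS, a buffered saline. The labels do not say whether control cells received it, nor whether arrays of a group came from separate cultures, so the p-values reflect variation among arrays that may be technical only.

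Most ABC proteins pump a substrate across a membrane at the cost of ATP. The A subfamily carries mainly lipids. The B subfamily holds the multidrug pump P-glycoprotein together with transporters of lysosomes and mitochondria, and the C subfamily holds the multidrug resistance proteins (MRPs), which export organic anions and conjugates. The D subfamily serves peroxisomes and lysosomes and the G subfamily exports sterols and drugs, while the E and F proteins have no membrane part and work in translation. ABCC4 encodes MRP4, an exporter of cyclic nucleotides, prostaglandins and conjugated steroids, and is known from tumours as a drug efflux pump.

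Values are the deposited log2 values of probe sets. The median over all probe set means was 2.53, and a gene near it is close to background. Testing required 2 or more arrays at or above it. Of the epithelial markers all 7 lay above it, from KRT8 at 4.18 to EGFR at 10.79, and ESR1 (2.35) and PGR (1.49) lay below it. Of leukocyte, fibroblast and endothelial markers 1 of 5, 1 of 4 and 2 of 3 lay above it. Those above were CSF1R at 4.27, COL1A1 at 3.34, CDH5 at 3.44 and KDR at 3.76. The lowest of each list were PTPRC at 1.46, DCN at 1.43 and VWF at 1.87. The summed log2 values of the 3 endothelial markers ran from 8.2 to 8.8 with TNF plus apigenin, 10 to 10.8 with TNF, 6.8 to 7.3 with apigenin and 9.3 to 10 in control, and their part in the results below was not tested. Array apigenin 1 stood apart, with a median of 3.89 over the tested genes against 4.08 to 4.32 on the other 10 arrays. All genes together shifted, by a median log2 change of -0.177 between apigenin and control, 0.162 between the joint treatment and apigenin, and 0.226 in the interaction. The shift lay between -0.043 and 0.015 in the other comparisons.

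Changes called below had an adjusted p under 0.05 by limma, with the Benjamini-Hochberg adjustment taken across the 15865 genes. Arrays that did not overlap between the groups compared were common, from 13.3% of all genes (TNF against control) to 31.5% (apigenin against control). ABCC4, ABCA12 and ABCA5 were called in at least 1 comparison, and the other 20 tested members in none. Their promoter windows are shown because these are the members that moved. Each runs from 250 bases before to 50 bases after an annotated start, 5′ to 3′ on the minus strand, in RefSeq's GRCh38.p14. Capitals mark GCGTG, the core bound by the aryl hydrocarbon receptor, on either strand.
ABCC4, chr13:95301402-95301701: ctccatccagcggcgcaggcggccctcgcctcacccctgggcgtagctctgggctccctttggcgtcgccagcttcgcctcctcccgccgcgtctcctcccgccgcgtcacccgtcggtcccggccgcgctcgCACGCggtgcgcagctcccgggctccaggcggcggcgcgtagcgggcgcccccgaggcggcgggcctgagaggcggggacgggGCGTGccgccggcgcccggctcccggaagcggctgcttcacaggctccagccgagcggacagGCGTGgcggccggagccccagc
ABCA5, chr17:69327084-69327383: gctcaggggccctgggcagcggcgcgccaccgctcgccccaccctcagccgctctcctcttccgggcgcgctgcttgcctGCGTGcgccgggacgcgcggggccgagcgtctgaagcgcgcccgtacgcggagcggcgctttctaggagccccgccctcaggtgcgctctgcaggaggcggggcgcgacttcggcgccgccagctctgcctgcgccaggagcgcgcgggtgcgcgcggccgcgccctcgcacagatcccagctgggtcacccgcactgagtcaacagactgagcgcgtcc
ABCA12, chr2:215138577-215138876: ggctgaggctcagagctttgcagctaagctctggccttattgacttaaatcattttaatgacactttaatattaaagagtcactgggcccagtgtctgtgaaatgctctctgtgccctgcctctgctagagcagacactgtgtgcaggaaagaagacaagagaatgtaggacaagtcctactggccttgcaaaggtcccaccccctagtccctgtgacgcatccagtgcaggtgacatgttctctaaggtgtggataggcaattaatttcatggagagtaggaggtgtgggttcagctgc

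The ABCC4 window held 3 copies of GCGTG, at 117 and 34 bases before the start and at base 29 after it, and the ABCA5 window held 1, at 170 bases before it. The ABCA12 window held 0, as did a window at a further ABCA12 start. Of all 35116 promoter windows 36.5% held the motif, and 23 of the 49 windows of ABC members did. The NF-kB consensus was in none of these windows of ABCC4, ABCA5 and ABCA12, in 3 of 49 windows of members and in 11.3% of all windows. The ABCC4 window was 79.7% G and C, the ABCA5 window 76.3% and the ABCA12 window shown 48.7%, with a median of 58.7% over all windows. A match is a description of these letters and not evidence of binding.

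ABCC4 rose with TNF and was lower again when apigenin was added. On the log2 scale it read 5.28, 5.59 and 5.29 with TNF plus apigenin, 6.48, 6.49 and 6.33 with TNF, 4.22 and 4.02 with apigenin, and 4.29, 3.98 and 4.36 in control. All 3 TNF arrays lay above all other arrays. The 3 arrays of the joint treatment lay between them and the rest, and the apigenin and control arrays overlapped. Of all genes 13.3% did not overlap for TNF against control and 15.7% for the joint treatment against TNF. The joint treatment did not overlap control for 20.1% and apigenin for 25.7% of all genes. TNF against control gave 6.43 ± 0.09 in TNF and 4.21 ± 0.2 in control (SD, n = 3 each), a rise of 2.22 ± 0.17 (SE) or 4.65-fold (limma adjusted p = 4.65e-06). Apigenin added to TNF gave 5.39 ± 0.17 (SD, n = 3), a log2 change against TNF alone of -1.04 ± 0.17 or 2.06-fold lower (limma adjusted p = 0.00709).

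The joint treatment left ABCC4 above both groups without TNF. Against control it was higher by 1.17 ± 0.17 or 2.25-fold (limma adjusted p = 0.00163). Against apigenin alone, whose mean was 4.12 ± 0.14 (SD, n = 2), it was higher by 1.27 ± 0.19 or 2.4-fold, and by 1.1 relative to all genes (limma adjusted p = 0.00577). This last call was lost, with an adjusted p of 0.0926, when only the 5 arrays of the 2 groups were fitted. Apigenin alone changed ABCC4 by -0.09, with a 95% interval from -0.5 to 0.31 (limma adjusted p = 0.837), which turned to 0.09 after quantile normalization and 0.12 after a median shift of the arrays.

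The TNF effect on ABCC4 was therefore 1.27 in cells with apigenin and 2.22 in cells without it. Their difference, the interaction, was -0.95 with a 95% interval from -1.5 to -0.4. It had an unadjusted p of 0.00215 and did not pass over all genes (limma adjusted p = 0.432; 0.129 to 0.8 under the alternatives). Limma called 4 of the 15865 genes for the interaction (0.0252%; 0.0126% in each direction), and 0 of the 23 members. At an unadjusted p under 0.05 it had 2 members, ABCC4 and ABCA12, or 8.7%, against 8.16% of all genes.

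**Figure D1:**
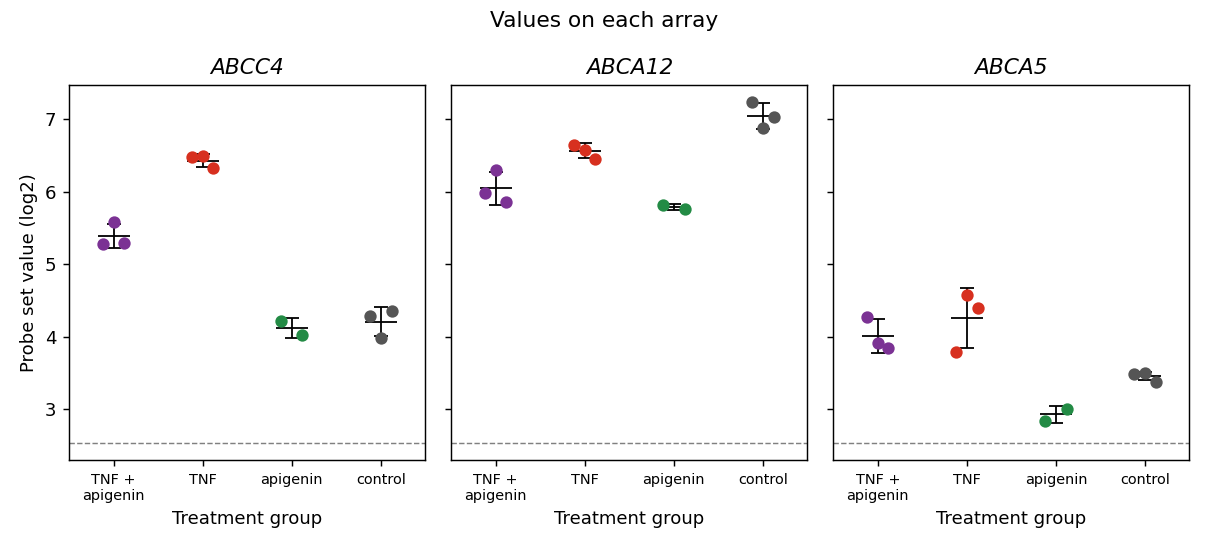
Probe set values (log2) of ABCC4, ABCA12 and ABCA5 on each of the 11 arrays by treatment group, with the group mean (bar) and SD (whiskers); the dashed line marks the median of all probe set means, 2.53. ABCC4 is highest on the 3 TNF arrays and intermediate with TNF plus apigenin, ABCA12 is lowest on the 2 apigenin arrays, and ABCA5 is lowest there too.

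ABCA12 was lower than control with apigenin alone and with TNF plus apigenin. It encodes a lipid transporter that loads the lamellar granules of skin cells, and its loss in humans causes harlequin ichthyosis. It read 5.98, 6.3 and 5.86 with TNF plus apigenin, 6.65, 6.58 and 6.46 with TNF, 5.82 and 5.77 with apigenin, and 7.24, 6.88 and 7.03 in control on the log2 scale. The 4 groups did not overlap, and they stood in the order control, TNF, TNF plus apigenin, apigenin from high to low. Of all genes 13.3% did not overlap for TNF against control, 15.7% for TNF plus apigenin against TNF and 25.7% for TNF plus apigenin against apigenin. Against control the shares were 31.5% for apigenin and 20.1% for the joint treatment. Apigenin alone gave 5.79 ± 0.04 (SD, n = 2) and control 7.05 ± 0.18 (SD, n = 3), a log2 change of -1.26 ± 0.19 or 2.39-fold lower (limma adjusted p = 0.00311), and -1.08 relative to all genes. The joint treatment gave 6.05 ± 0.23 (SD, n = 3) and was below control by a log2 change of -1 ± 0.17 (limma adjusted p = 0.00519).

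Neighbouring groups in that order were not called for ABCA12. TNF against control gave -0.48 ± 0.17 (limma adjusted p = 0.419) and TNF plus apigenin against TNF -0.52 ± 0.17 (limma adjusted p = 0.22). TNF plus apigenin against apigenin gave 0.25 ± 0.19, with an interval from -0.16 to 0.66 (limma adjusted p = 0.551), and -0.03 after quantile normalization. The interaction was 0.74, with an interval from 0.18 to 1.29 (limma adjusted p = 0.54), where the median over all genes was 0.226. It ran from 0.41 to 0.84 under the alternatives. Without array apigenin 1 the change with apigenin alone was -1.28 (limma adjusted p = 0.0358). Here, and wherever 1 of the 2 apigenin arrays is left out, the apigenin group is a single array that is assumed to vary like the other groups, so such a p is no check on its spread.

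ABCA5, which encodes a lysosomal lipid transporter, was called in 1 comparison. Its log2 values were 4.27, 3.92 and 3.84 with TNF plus apigenin, 3.79, 4.58 and 4.4 with TNF, 2.84 and 3.01 with apigenin, and 3.49, 3.5 and 3.38 in control. Both groups with TNF lay above both groups without it, and overlapped each other. For TNF against control 13.3% of all genes did not overlap, and for TNF plus apigenin against apigenin 25.7%. TNF plus apigenin against apigenin was higher by 1.09 ± 0.23 or 2.12-fold, and by 0.93 relative to all genes (limma adjusted p = 0.0497). That call was lost in 14 of 20 alternative fits. They included quantile normalization (adjusted p = 0.0536) and a median shift of the arrays (adjusted p = 0.0931). They also included 7 fits without 1 array, namely control 1 (adjusted p = 0.075), control 3 (0.0767), TNF 2 (0.0505), TNF 3 (0.0667), apigenin 1 (0.306, with 1 apigenin array left), TNF plus apigenin 1 (0.188) and TNF plus apigenin 2 (0.176). TNF against control gave 0.8 ± 0.21 (limma adjusted p = 0.129), which passed without array TNF 1 (1.03, adjusted p = 0.0285) and with array weights (0.88, adjusted p = 0.0219). Apigenin against control gave -0.53 ± 0.23 (limma adjusted p = 0.219).

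Over the family, TNF against control called 1 of the 23 tested members as higher (ABCC4) and 0 as lower, where 0.473% of all tested genes were called higher and 0.227% lower. The median change of the members was -0.04, against -0.043 over all genes. At an unadjusted p under 0.05 there were 3 members, or 13%, against 7.41% of all genes, and 4 members had arrays that did not overlap between the groups, against 13.3% of all genes. Apigenin against control called 0 as higher and 1 as lower (ABCA12), with 0.221% and 3.44% of all genes called in these directions. Over all genes the 581 calls in this comparison numbered 84 without apigenin 1 and 1290 without apigenin 2. The members' median was -0.2, against -0.177. At an unadjusted p under 0.05 there were 4 members, or 17.4%, against 19.5% of all genes, and 5 did not overlap, against 31.5%. TNF plus apigenin against TNF called 0 as higher, where 0.384% of all genes were, and 1 as lower (ABCC4), where 0.681% were, with a median of 0.05 against 0.015. At an unadjusted p under 0.05 there were 2 members, or 8.7%, against 11.1%, and 2 did not overlap, against 15.7%.

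TNF plus apigenin against control called 1 member as higher (ABCC4), where 1.04% of genes were, and 1 as lower (ABCA12), where 1.78% were, with a median of -0.06 against -0.025. At an unadjusted p under 0.05 there were 4 members, or 17.4%, against 15.9%, and 5 did not overlap, against 20.1%. TNF plus apigenin against apigenin called 2 as higher (ABCC4 and ABCA5), where 0.529% of genes were, with a median of 0.17 against 0.162. Over all genes the 91 calls here numbered 18 without apigenin 1 and 598 without apigenin 2. At an unadjusted p under 0.05 there were 2 members, or 8.7%, against 15.7%, and 4 did not overlap, against 25.7%. Comparisons that share an arm use the same arrays, so their calls are not separate evidence.

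Among the lipid carriers of the A subfamily, 6 of 12 members were tested. Apart from ABCA5 and ABCA12 their changes lay within the range -0.44 to 0.49 in the 6 comparisons, and 0 were called. Over all genes 0.0252% to 3.66% were called per comparison. ABCA2, of late endosomes, changed by -0.3 with TNF and 0.23 when apigenin was added to it. ABCA3, which loads surfactant lipid in lung cells, changed by 0.36 when apigenin was added to TNF (limma adjusted p = 0.534). ABCA4, a retinal transporter known from the eye, had its largest change between groups with apigenin alone, at -0.44. It came from means of 2.28 with apigenin and 2.72 in control that sit at background. The ABCA4 interaction was 0.49 (limma adjusted p = 0.618). ABCA7 changed by 0.12 with apigenin alone and -0.04 with TNF alone.

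ABCA1, the exporter of cholesterol to apolipoprotein A-I, was not tested, with group means between 2.17 and 2.35. ABCA6, ABCA8, ABCA9, ABCA10 and ABCA13 were at background too, with group means between 1.4 and 1.9. All group means of the 18 untested members lay between 1.4 and 2.42. For 12 of them no array reached 2.53, and for 6 of them 1 array did. Levels this low give no view of a fall. When all genes were tested without the filter, none of the 18 was called in any comparison by limma, with a lowest adjusted p of 0.154.

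In the B subfamily 3 of 6 members were tested and 0 were called, where 0.0252% to 3.66% of all genes were called per comparison. ABCB1, the multidrug pump P-glycoprotein, had means of 2.8 ± 0.1 with TNF plus apigenin, 2.74 ± 0.13 with TNF (SD, n = 3 each), 2.59 ± 0.28 with apigenin (SD, n = 2) and 2.77 ± 0.19 in control (SD, n = 3), near background throughout. ABCB9, a peptide transporter of lysosomes, read 2.94, 3.17 and 3.18 with TNF plus apigenin and 3.67, 3.53 and 3.52 in control. These groups did not overlap, which 20.1% of all genes also showed, and the change of -0.48 ± 0.16 was not called (limma adjusted p = 0.148). It passed after quantile normalization (-0.48, adjusted p = 0.0471) and with array weights (-0.49, adjusted p = 0.0441). ABCB10, of the inner mitochondrial membrane, changed by -0.25 with apigenin alone and 0.27 between TNF plus apigenin and apigenin. ABCB4, ABCB5 and ABCB11 were not tested.

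Of the C subfamily 7 of 11 members were tested. Beside ABCC4, ABCC1 and ABCC3, which encode MRP1 and MRP3, were well above background. ABCC1 had means of 5.37 ± 0.45 with TNF plus apigenin, 5.61 ± 0.21 with TNF, 5.17 ± 0.19 with apigenin and 5.62 ± 0.23 in control (SD). Its change of -0.46 with apigenin alone had an interval from -0.99 to 0.08 (limma adjusted p = 0.332). ABCC3 changed by 0.12 with TNF, and by -0.31 when apigenin was added to TNF (limma adjusted p = 0.637). ABCC5, an exporter of cyclic nucleotides like ABCC4, had means of 4.88 ± 0.29 with TNF and 4.72 ± 0.4 in control (SD, n = 3 each), a change of 0.16 ± 0.23 with an interval from -0.32 to 0.65. ABCC10 (MRP7) changed by -0.41 between TNF plus apigenin and control (limma adjusted p = 0.407).

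ABCC11, known for its part in human earwax type, and the pseudogene ABCC13 passed the filter on 2 arrays each, with means between 2.34 and 2.63. For ABCC11 these were control 1 (2.69) and control 3 (2.76), so its changes against control depend in part on the filter. For ABCC13 they were control 3 (2.69) and TNF 2 (2.57). ABCC2, which encodes the apical MRP2, was not tested, with group means between 2.1 and 2.21, nor were ABCC8 and ABCC9, the sulphonylurea receptors of potassium channels, and ABCC12. ABCC12 had 2.72 on apigenin 1 and 2.13 on apigenin 2, and 1.76 to 2.09 on the 9 arrays without apigenin alone.

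In the D, E, F and G subfamilies limma called 0 of 7 tested members in each comparison. Over all genes 0.0252% to 3.66% were called per comparison, so 0 among so few genes is near these shares. Of the half-transporters ABCD3, which brings long-chain acyl-CoA into peroxisomes, had means of 8.15 ± 0.23 with TNF plus apigenin, 8.3 ± 0.01 with TNF, 7.82 ± 0.36 with apigenin and 8.22 ± 0.21 in control (SD). ABCE1, a ribosome recycling factor, had 7.67 ± 0.25, 7.48 ± 0.22, 7.21 ± 0.57 and 7.44 ± 0.03 in the same order of groups. Its apigenin arrays read 6.81 and 7.61, a gap wider than any difference between its group means. ABCF1 and ABCF2, which act in translation, changed by -0.2 and 0.13 with apigenin alone, and ABCF3 by 0.04 with arrays of 5.5 and 6.53.

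The 7 probe sets of ABCF1 gave nearly equal means, from 7.804 to 7.821. All but the highest shared the same group means at the digits kept, so they may not be separate measurements. ABCD4, needed for vitamin B12 release from lysosomes, changed by -0.24 with TNF. ABCG4, a sterol transporter known from brain, changed by -0.32 with TNF, where control 2 read 3.77 and the other control arrays 2.84 and 2.56, and the change was 0.04 without control 2. ABCG2, the breast cancer resistance protein, was not tested, with group means of 2.09 with TNF plus apigenin, 2.09 with TNF, 2.12 with apigenin and 2.13 in control. ABCG1, ABCG5, ABCG8 and ABCD2 were at background as well.

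**Figure D2:**
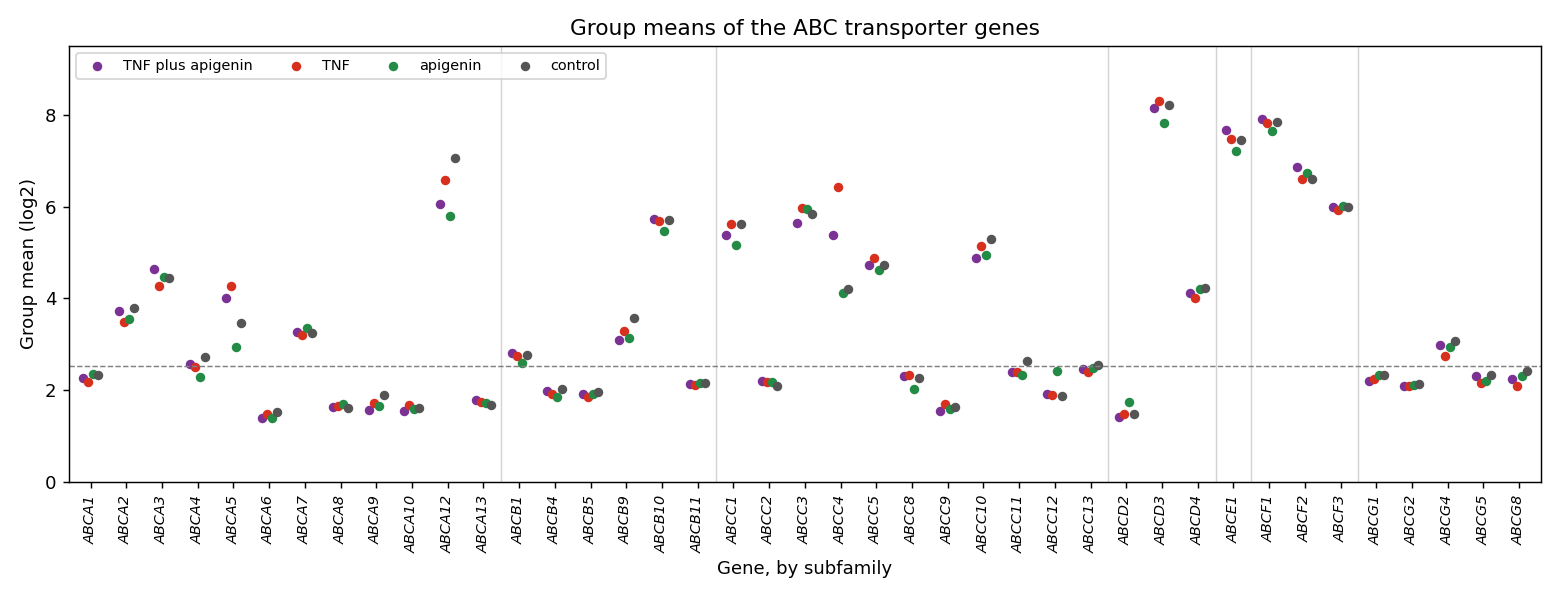
Group means (log2) of all 41 ABC transporter genes, by subfamily from A to G, with 1 point for each treatment group; the dashed line marks the median of all probe set means, 2.53. ABCC4, ABCA12 and ABCA5 show spread-out group means, while 18 genes lie under the line without having been tested.

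**Figure D3:**
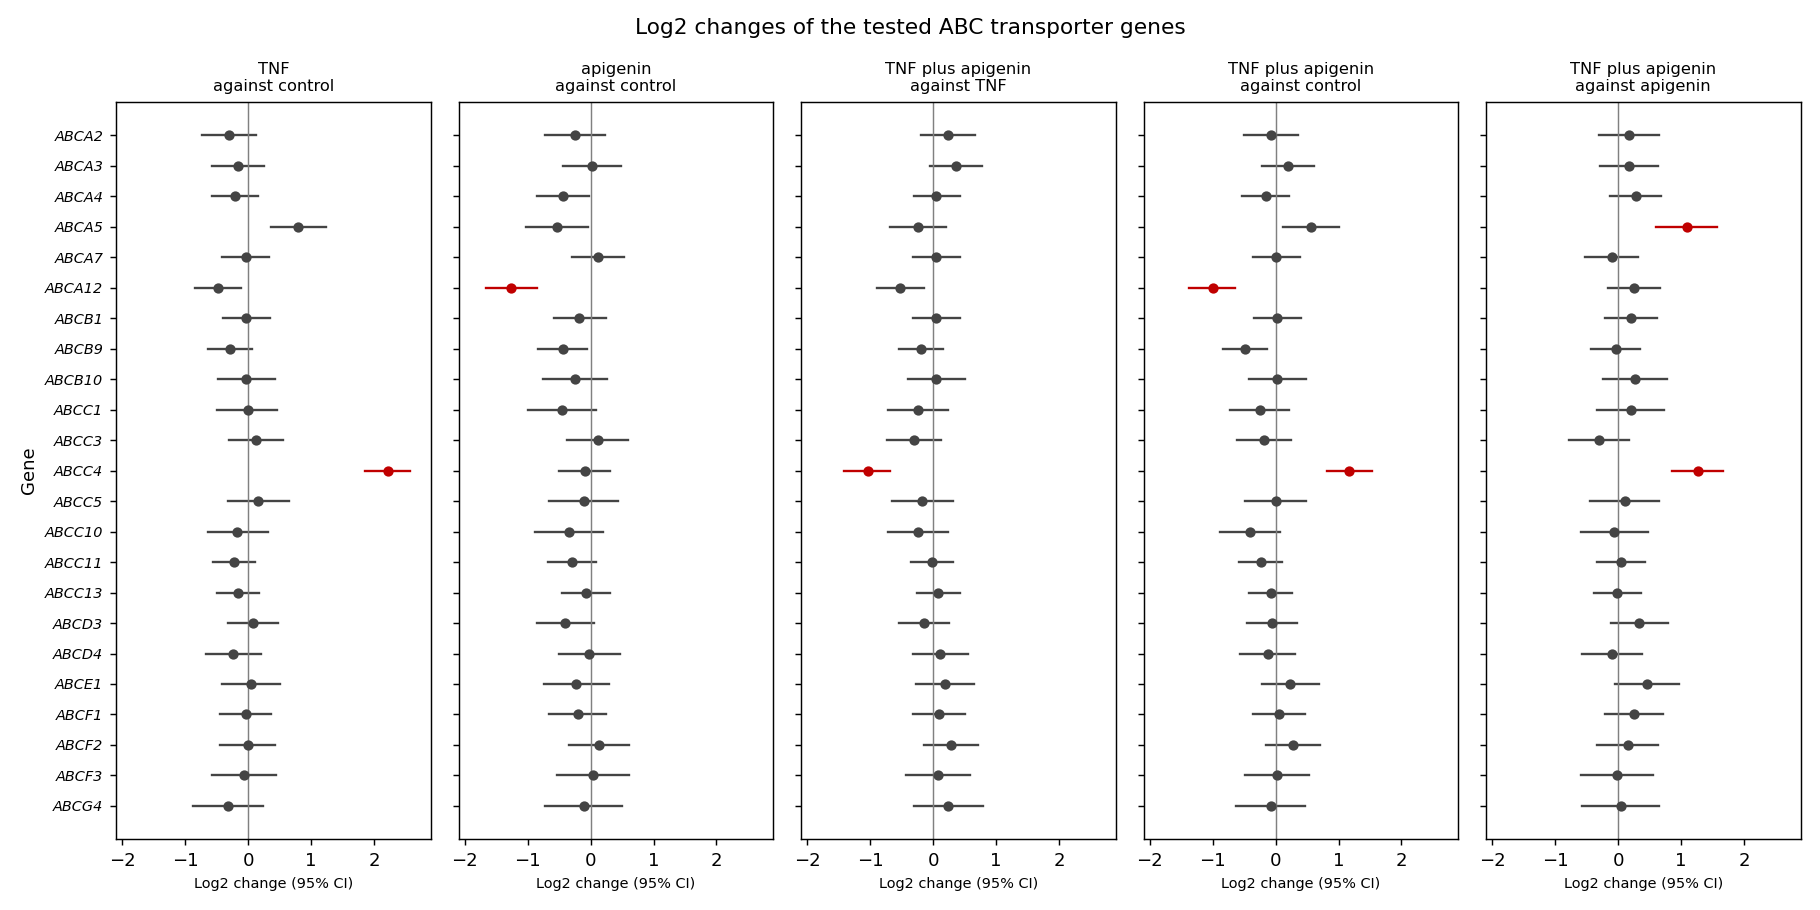
Log2 changes with 95% intervals of the 23 tested ABC transporter genes in 5 group comparisons, the first-named group over the other; red marks an adjusted p under 0.05. ABCC4 is marked in 4 panels, ABCA12 in 2 and ABCA5 in 1.

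Members that were not called lay between -0.48 and 0.8 with TNF, between -0.53 and 0.13 with apigenin, and between -0.52 and 0.36 for TNF plus apigenin against TNF.

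Of the ABC genes under other symbols, TAP1, TAP2 and CFTR, 0 of 3 were called. Over all genes 0.0252% to 3.66% were called per comparison. TAP1 and TAP2 encode the peptide transporter of antigen presentation. TAP1 read 5.81, 5.81 and 5.57 with TNF plus apigenin, 6.28, 5.84 and 5.71 with TNF, 4.73 and 4.87 with apigenin and 5.27, 5.1 and 5.32 in control. Both groups with TNF lay above both groups without it. Of all genes 13.3% did not overlap for TNF against control and 25.7% for TNF plus apigenin against apigenin. Its change was 0.71 ± 0.18 for TNF against control (limma adjusted p = 0.12) and 0.93 ± 0.2 for TNF plus apigenin against apigenin (limma adjusted p = 0.0545). The TNF change of TAP1 passed after quantile normalization (0.73, adjusted p = 0.0279) and a median shift (0.76, adjusted p = 0.0316). Its change between TNF plus apigenin and apigenin passed with a stricter filter (adjusted p = 0.0326), with limma's trend and robust options (0.046), and without TNF 1 (0.0423), TNF plus apigenin 3 (0.0488) or apigenin 2 (0.0464, with 1 apigenin array left). CFTR, the chloride channel, had group means between 2.51 and 2.58.

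A set of 12 lists gave 87 tested genes. It holds TAP1, TAP2 and CFTR beside partners of ABC proteins, uptake carriers and transcription factors. The lists were chosen with earlier results of these data known, so the shares below are no test of them. TNF against control called 1 of them as higher and 1 as lower (2.3%, against 0.7% of all genes). Apigenin against control called 3 as lower (3.45%, against 3.44% of all genes called lower). TNF plus apigenin against TNF called 2 as lower (2.3%, against 0.681% of all genes called lower). TNF plus apigenin against control called 3 as lower (3.45%, against 1.78% called lower). TNF plus apigenin against apigenin called 1 as higher (1.15%, against 0.529% called higher). The called genes belonged to 4 of the lists.

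Of 10 tested genes of prostaglandin E2 and cyclic AMP handling, both classes of ABCC4 substrate, PTGES and PDE4B were called. TNF against control called 1 as higher (0.473% of all genes called higher) and apigenin against control 1 as lower (3.44% called lower). TNF plus apigenin called 2 as lower against TNF (0.681% called lower) and 1 as lower against control (1.78%). PTGES, a synthase of prostaglandin E2 listed beside PTGES2 and PTGES3, read 5.08, 4.54 and 4.76 with TNF plus apigenin and 6.36, 6.16 and 5.82 with TNF. It read 4.27 and 3.92 with apigenin and 6.28, 5.4 and 5.65 in control. Both groups with apigenin lay below both groups without it. Of all genes 31.5% did not overlap for apigenin against control, 15.7% for the joint treatment against TNF and 20.1% for it against control. It was lower with apigenin alone by a log2 change of -1.68 ± 0.26 (limma adjusted p = 0.00364) and with TNF plus apigenin than with TNF by -1.32 ± 0.24 (limma adjusted p = 0.0115). Against control the joint treatment gave -0.98 ± 0.24 (limma adjusted p = 0.0383). The call against TNF was lost without TNF 1, TNF 2, TNF plus apigenin 2 or TNF plus apigenin 3, with adjusted p up to 0.0731. The call of the joint treatment against control was lost without control 1, control 3, TNF 2, TNF plus apigenin 2 or TNF plus apigenin 3, with adjusted p up to 0.178, and also without the filter (0.06) and with only the groups compared (0.0596).

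PDE4B, a phosphodiesterase that breaks down cyclic AMP, read 2.96, 3.28 and 2.87 with TNF plus apigenin, 4.01, 3.77 and 3.7 with TNF, 2.64 and 2.55 with apigenin and 2.98, 2.87 and 2.86 in control. As for ABCC4, the TNF arrays were above all others. Of all genes 13.3% did not overlap for TNF against control and 15.7% for TNF plus apigenin against TNF. TNF against control gave 0.92 ± 0.17 (limma adjusted p = 0.0165) and TNF plus apigenin against TNF -0.79 ± 0.17 (limma adjusted p = 0.0313), from control values near background. The TNF call on PDE4B was lost without TNF 1, TNF 2 or any 1 control array, with adjusted p up to 0.0982. The other call was lost without any 1 TNF array, control 1, control 3, TNF plus apigenin 1 or TNF plus apigenin 3, with adjusted p up to 0.166, and also with only the groups compared (0.0835).

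PDZK1, a scaffold protein that binds the tail of several ABC transporters, was lower with each treatment. It read 2.38, 2.79 and 3.1 with TNF plus apigenin, 2.6, 2.71 and 2.86 with TNF, 2.84 and 2.92 with apigenin and 4.04, 3.45 and 4.13 in control. The treated groups overlapped each other near background and lay below control. Of all genes 20.1% did not overlap for the joint treatment against control, 13.3% for TNF and 31.5% for apigenin. The log2 changes against control were -1.11 ± 0.22 for the joint treatment (limma adjusted p = 0.011), -1.15 ± 0.22 for TNF (limma adjusted p = 0.0221) and -1 ± 0.24 for apigenin (limma adjusted p = 0.0346). Each PDZK1 call was lost without control 1 or control 3. The joint call was lost also without TNF plus apigenin 1, the TNF call without any 1 TNF array, and the apigenin call without either apigenin array (1 left) or TNF plus apigenin 2, with adjusted p up to 0.21. With only the groups compared the TNF call (adjusted p = 0.0604) and the apigenin call (0.108) on PDZK1 were lost. The apigenin call was lost also after a median shift (-0.79, adjusted p = 0.114) and with array weights (-1.14, adjusted p = 0.0652). The other 3 scaffold genes tested were not called. Of all genes 1.78%, 0.227% and 3.44% were called lower for the joint treatment, TNF and apigenin against control.

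Of 16 tested genes of glutathione and conjugation, SULT2B1 and MGST2 were called. TNF plus apigenin against control called 1 as lower (1.78% of all genes called lower) and apigenin against control 1 as lower (3.44%). SULT2B1, a sulphotransferase of cholesterol and steroids, read 4.19, 3.71 and 3.63 with TNF plus apigenin and 5.75, 4.77 and 5.5 in control. These did not overlap, which 20.1% of all genes also showed, and the log2 change was -1.5 ± 0.23 (limma adjusted p = 0.00256). MGST2, a microsomal glutathione transferase, was lower with apigenin than in control by -0.78 ± 0.19 (limma adjusted p = 0.0328), and lost that call without control 1, control 3 or either apigenin array (1 left), with adjusted p up to 0.134. The MGST2 call was lost also after quantile normalization (-0.59, adjusted p = 0.0573) and a median shift (-0.57, adjusted p = 0.0749), with array weights (-0.81, adjusted p = 0.0962) and with only the groups compared (adjusted p = 0.122). It read 4.08 and 3.97 with apigenin and 4.94, 4.66 and 4.8 in control.

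Of 11 tested transcription factors that act on ABC genes, 1 was called, for TNF plus apigenin against apigenin (0.529% of all genes called higher). This was NFKB1, which encodes the p105 precursor of an NF-kB subunit. It was higher by 1.47 ± 0.21, and by 1.31 relative to all genes (limma adjusted p = 0.00412). Against control NFKB1 changed by -0.77 with apigenin (limma adjusted p = 0.0575). It changed by 0.75 with TNF (limma adjusted p = 0.12) and 0.7 with both (limma adjusted p = 0.0663). It read 6.68, 6.69 and 6.18 with the joint treatment and 4.89 and 5.2 with apigenin, and the call was lost with only the groups compared (adjusted p = 0.0714) and without apigenin 1 (1.31, adjusted p = 0.0893, with 1 apigenin array left). None of the genes tested was called in the lists of peptide loading partners (7 tested), OATP carriers (3), organic ion carriers (4) and cholesterol efflux partners (7). The same held for peroxisomal oxidation (6), mitochondrial iron and heme (9) and translation partners (7). Over all genes 0.0252% to 3.66% were called per comparison. NCEH1, a cholesteryl ester hydrolase, changed by 0.76 with TNF (limma adjusted p = 0.213), and HSD17B4, an enzyme of peroxisomal oxidation, by -0.73 with apigenin (limma adjusted p = 0.089).

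**Figure D4:**
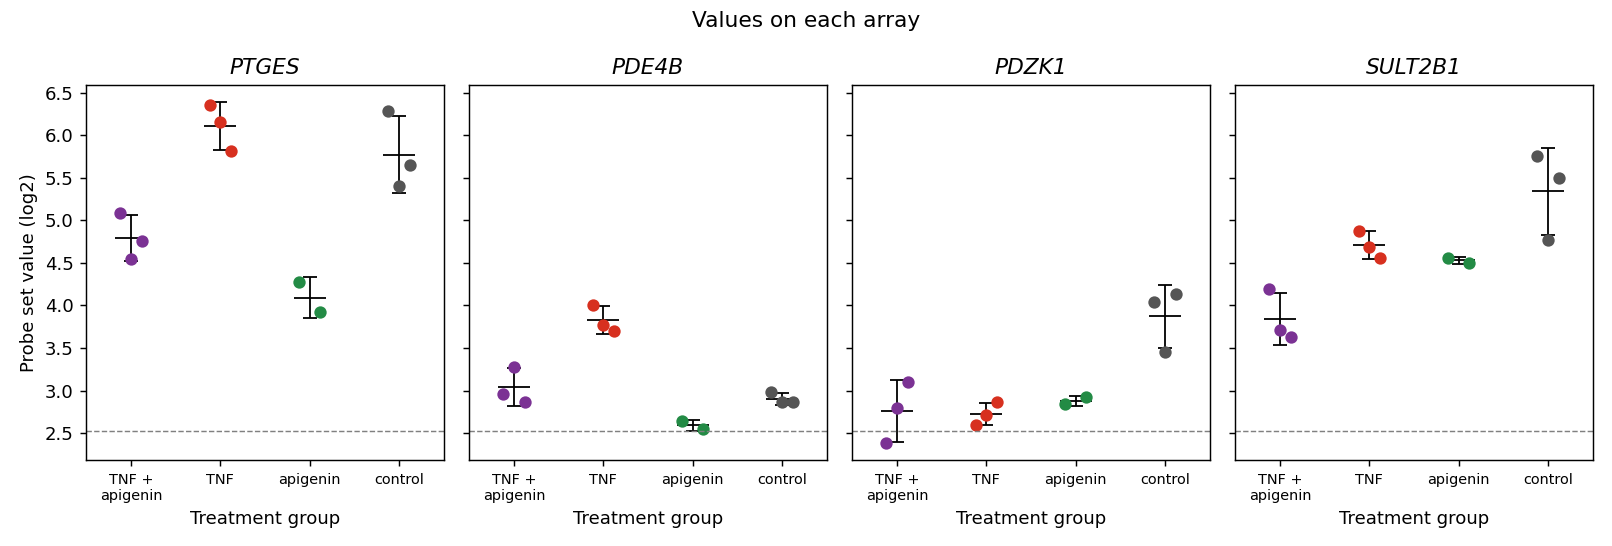
Probe set values (log2) of PTGES, PDE4B, PDZK1 and SULT2B1 on each of the 11 arrays by treatment group, with the group mean (bar) and SD (whiskers); the dashed line marks 2.53. PTGES is low in both groups with apigenin, PDE4B is high with TNF, PDZK1 is high in control and SULT2B1 is lowest with TNF plus apigenin.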

How the data were processed

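The authors deposited log2 values of 53617 probe sets. The submitters' processing notes name Affymetrix Expression Console, with its version, algorithm and between-array normalization not given in the sources used here. Values from 0.38 to 12.31 were read as log2 because of that range. GEO's platform annotation gave 23871 probe sets 1 symbol, and 22569 matched RefSeq (GRCh38.p14, names and promoters only) by gene number. The highest mean over 11 arrays was used for the 632 genes with several probe sets.

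A mean for each group was fitted to all 11 arrays with limma 3.58.1 (lmFit and eBayes; 7 residual degrees of freedom) in R 4.3.3, two-sided, over 15865 genes, and was tested on simulated data. Errors are moderated SE, or SD for group means. The interaction is the TNF effect with apigenin minus that without it. The number of arrays limits the precision. The members, lists and tests were chosen with earlier results of these data known. Genes were named by a rule: ABCC4, every called member, the 5 highest and 5 lowest changes per comparison, and the highest and lowest levels. From the 12 lists the rule took called genes or the largest change. Other members are named to account for the family. A further 20 alternative fits were run.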

Additional observations from a re-analysis of the deposited data

How the results depend on the processing

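In 9 alternative fits and 11 that left out 1 array, none of the 7 called changes of ABC members reversed, and those of ABCC4 and ABCA12 were called in each, except ABCC4 for TNF plus apigenin against apigenin with only these groups fitted (0 members called there). The count for that comparison was 2, and it was 1 with quantile normalization, a median shift, no filter, mean probe sets, array weights and the replicate block, and 1 to 2 without 1 array, as ABCA5 lost its call. With TNF against control the count of 1 became 2 with array weights and 1 to 2 without 1 array, and with TNF plus apigenin against control the count of 2 became 4 with array weights (ABCA5 and ABCB9 added). The causes were not tested. Over all genes the calls for TNF plus apigenin against control numbered 447, and 1233 after quantile normalization. Those for TNF plus apigenin against TNF numbered 169, and 510 after it. For apigenin against control 35 genes were higher and 546 lower, and 146 and 449 after quantile normalization. A median shift gave 182 calls for TNF against control (111 in the main setting, 186 after quantile normalization), 452 for the joint treatment against TNF and 998 for it against control. Array weights gave 221 calls for TNF against control, 207 for apigenin, 391 for the joint treatment against TNF, 1197 for it against control and 32 for it against apigenin. With only the groups compared there were 103 calls for apigenin and 16 for the joint treatment against apigenin. Without 1 array the calls ran from 84 to 1290 for apigenin, from 60 to 128 for TNF, and for the joint treatment from 18 to 598 against apigenin, from 206 to 538 against control and from 85 to 197 against TNF. The replicate numbers were not taken as pairs. Of 15 same-numbered pairs of arrays 4 had deviations from group means correlated above 0.1 (range -0.24 to 0.275). Of 11 arrays 6 correlated best with their own number. Such deviations sum to 0 within a group, and those of the 2 apigenin arrays mirror each other, so the check cannot exclude pairing. With the replicate block 106 genes were called for TNF against control (111 without it) and 712 for apigenin against control (581 without it).

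Some changes that were not called in any setting turned sign, not all of them near 0, and the cause was not tested. With array weights ABCC5 was -0.03 for TNF against control and 0.2 for the interaction, ABCA7 0.06 for the interaction and ABCF3 -0.01 for apigenin against control. With the replicate block ABCA3 was -0.05 and ABCF3 -0.04 for apigenin against control and ABCC10 0.05 for TNF plus apigenin against apigenin. After quantile normalization ABCC4 was 0.09 for apigenin against control (0.12 after a median shift) and ABCA12 -0.03 for TNF plus apigenin against apigenin. Leaving out 1 array gave these ranges. For TNF against control ABCC5 ran from -0.07 to 0.29, ABCD3 from -0.03 to 0.17 and ABCG4 from -0.57 to 0.04. For apigenin against control ABCA3 ran from -0.03 to 0.13, ABCC3 from -0.23 to 0.46, ABCC4 from -0.21 to 0.01, ABCF2 from -0.12 to 0.38 and ABCF3 from -0.48 to 0.55. For TNF plus apigenin against TNF ABCC1 ran from -0.42 to 0.01. For TNF plus apigenin against apigenin ABCB9 ran from -0.14 to 0.06, ABCC10 from -0.35 to 0.23, ABCC3 from -0.65 to 0.04 and ABCD4 from -0.25 to 0.05. For the interaction ABCA7 ran from -0.19 to 0.04 and ABCC5 from -0.29 to 0.18.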
